A study of Mus musculus with 6 samples.

Results

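The homeodomain transcription factor genes *Lhx1*, *Lhx3*, *Lhx4*, *Lhx5*, *Isl1*, *Mnx1*, *Evx1*, *Evx2* and *Lbx1* were followed in 2 lists of open chromatin, 1 per genotype. An open interval was assigned to one of these 9 genes when the transcription start site (TSS) nearest to its strongest summit, among protein-coding genes, belonged to that gene and lay at most 50 kb away. By this rule 43 of the 82885 parent intervals and 42 of the 107480 ΔSRR2–18 intervals belonged to the 9 genes, and all 9 genes had at least 1 interval in each list. The 85 intervals fell in 59 of the 150251 distinct regions of both lists together. ATAC-seq, in which a transposase inserts adapters into accessible DNA, was run on neural stem and progenitor cells (NSPCs) derived from mouse ESCs of a 129S1/Cast F1 hybrid, to see how chromatin changes when a *Sox2* enhancer cluster is absent. The parent group was 3 cultures of Clone 5B, which had no deletion, and the ΔSRR2–18 group was 3 cultures of Clone 47D, in which the enhancer cluster SRR2–18 was deleted on both alleles. Cells of both groups carried Sox2-mCherry on the 129 allele and grew in N2B27 medium with EGF and bFGF. Each genotype was thus represented by 1 clone, and the cultures of a genotype were combined into 1 list.

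The 9 genes encode homeodomain proteins that give newborn spinal cord neurons their identity. *Lhx1*, *Lhx5* and *Lbx1* act in dorsal interneurons, and *Lhx1* also guides the axons of limb motor neurons. *Evx1* and *Evx2* mark ventral commissural interneurons and lie beside the *Hoxa* and *Hoxd* clusters. *Lhx3*, *Lhx4*, *Isl1* and *Mnx1* act in motor neurons, where *Lhx3* and *Isl1* proteins work in one LIM complex. Such genes are commonly held silent in progenitors and have CpG-rich promoters, and their enhancers open as a particular neuron class forms.

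The lists gave no spread between cultures, so no difference between genotypes was tested, and intervals around shares cover counting error only. The pileup at a summit is the number of extended reads stacked there, and the genome-wide background was 38.8 in the parent list and 19.7 in the ΔSRR2–18 list, a depth ratio of 1.98. Pileups were therefore divided by this background, and the result is called the summit height. Over all 39072 regions open in both lists the median log2 ratio of heights, ΔSRR2–18 over parent, was -0.24. Fold enrichment is the height over a local background, which can be raised by open chromatin within 10 kb. The window of the local background holds the interval itself, so this background and the height are not independent. Ranks were taken within a list and are given as a top percent, low for the strongest intervals. The 4 parent intervals between the 2 guide cut sites of SRR2–18 had 0 counterparts in the ΔSRR2–18 list. All 8 NSPC marker genes had an interval within 1 kb of a TSS in both lists, as did 4 of 6 neuron markers in each list. Of the 4 motor neuron markers, 3 had one in the parent list and 4 in the ΔSRR2–18 list, and an open TSS does not show that a gene is transcribed. The marker loci were not alike in all respects. The 8 NSPC genes had 72 parent and 40 ΔSRR2–18 intervals, of which 39 (54.2%) and 11 (27.5%) overlapped none of the other list. Over all protein-coding genes these shares were 45.05% and 53.04%. *Sox2* is 1 of the 8 NSPC genes, and the DNA between the cut sites, within 50 kb of its TSS, is absent from ΔSRR2–18 cells. Parent intervals in that DNA can have no counterpart, and the shares were not taken without them. Among neuron markers a TSS of *Elavl3* was covered in the parent list alone and of *Rbfox3* and *Snap25* in the ΔSRR2–18 list alone. Among NSPC markers a TSS of *Sox2* was covered in the ΔSRR2–18 list alone. The paper reports lower accessibility at the *Sox2* promoter in these cells, and coverage of a TSS is not a measure of height. In bulk cells, fewer cells with an open site and a less open site in every cell cannot be told apart.

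The sequences below are mm10 reference, plus strand, around the strongest summits that the results turn on, and capitals mark CpG dinucleotides. The ΔSRR2–18-only summits of highest fold enrichment lay beside *Evx2* at chr2:74647553-74647753 and beside *Mnx1* at chr5:29492290-29492490. The parent-only summits shown both belong to *Lhx3*, downstream of the gene at chr2:26182770-26182970 and in its intron at chr2:26205209-26205409. They came next after the strongest parent-only intervals, of *Lhx4* and *Mnx1*, which lay in untranslated regions and are not printed. The shared regions whose rank by pileup was lower and higher by most in ΔSRR2–18 were the *Lhx1* TSS, shown upstream of the transcript at chr11:84525536-84525652, and a site upstream of *Evx1* at chr6:52306018-52306218. The *Lhx5* site at chr5:120424124-120424324 had the highest fold enrichment of the set in both lists and was chosen after its values were seen.
Evx2 ΔSRR2–18-only: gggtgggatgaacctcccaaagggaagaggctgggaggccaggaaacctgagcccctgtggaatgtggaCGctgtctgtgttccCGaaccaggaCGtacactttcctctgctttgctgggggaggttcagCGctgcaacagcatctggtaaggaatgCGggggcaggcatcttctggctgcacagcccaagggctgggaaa
Mnx1 ΔSRR2–18-only: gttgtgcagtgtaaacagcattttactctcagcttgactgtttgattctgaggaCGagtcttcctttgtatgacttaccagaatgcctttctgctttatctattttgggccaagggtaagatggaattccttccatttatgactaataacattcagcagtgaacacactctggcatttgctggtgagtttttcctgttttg
Lhx3 parent-only, downstream: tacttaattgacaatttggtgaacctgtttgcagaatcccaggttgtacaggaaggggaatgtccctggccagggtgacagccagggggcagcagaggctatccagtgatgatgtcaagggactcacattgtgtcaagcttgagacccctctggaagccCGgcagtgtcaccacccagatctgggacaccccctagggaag
Lhx3 parent-only, intron: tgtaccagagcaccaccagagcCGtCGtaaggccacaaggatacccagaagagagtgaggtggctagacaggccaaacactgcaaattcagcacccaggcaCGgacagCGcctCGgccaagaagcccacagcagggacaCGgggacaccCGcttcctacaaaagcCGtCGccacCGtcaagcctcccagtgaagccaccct
Lhx1 TSS, shared: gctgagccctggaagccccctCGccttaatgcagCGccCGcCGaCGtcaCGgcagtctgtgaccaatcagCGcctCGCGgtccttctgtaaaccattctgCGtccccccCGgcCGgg
Evx1 upstream, shared: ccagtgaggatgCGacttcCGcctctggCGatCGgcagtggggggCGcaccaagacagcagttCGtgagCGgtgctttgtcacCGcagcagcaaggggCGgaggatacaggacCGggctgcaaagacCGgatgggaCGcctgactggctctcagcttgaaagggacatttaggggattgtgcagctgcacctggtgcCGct
Lhx5 upstream, shared: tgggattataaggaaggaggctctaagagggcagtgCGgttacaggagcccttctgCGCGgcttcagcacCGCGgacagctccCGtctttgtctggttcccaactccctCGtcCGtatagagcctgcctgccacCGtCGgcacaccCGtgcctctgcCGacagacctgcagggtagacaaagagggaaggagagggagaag
The *Lhx1* stretch of 117 bases held 12 CpG dinucleotides, the *Evx1* stretch held 13 and the *Lhx5* stretch held 12. The *Mnx1* stretch and the *Lhx3* stretch downstream of the gene held 1 each.

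Open intervals at the 9 genes were about as many in both genotypes, and 18 found in the parent list alone stood against 17 found in the ΔSRR2–18 list alone. This near balance did not hold under every alternative, and the alternatives went in both directions. With lists cut to equal length by fold enrichment, 43 parent intervals stood against 29 of ΔSRR2–18, and 22 parent-only against 9 ΔSRR2–18-only. Another alternative, added after the values were seen, scaled parent values to the ΔSRR2–18 depth and required a −log10 p of at least 50. There 14 parent-only intervals stood against 20 ΔSRR2–18-only. The cause of these shifts was not tested. Of the 43 parent intervals, 18 (41.9%, 95% Wilson interval 28.4 to 56.7%) overlapped no ΔSRR2–18 interval, where 52.3% of all parent intervals did not. Of the 42 ΔSRR2–18 intervals, 17 (40.5%, 27.0 to 55.5%) overlapped no parent interval, where 63.1% of all ΔSRR2–18 intervals did not. The remaining 25 intervals of each list were shared. The whole lists include intervals far from genes, and among intervals within 50 kb of the TSS of any protein-coding gene the shares were 45.05% in the parent list and 53.04% in the ΔSRR2–18 list. Both values lay inside the intervals around the shares of the 9 genes, so a difference from other genes was not detectable with these numbers. Intervals of 1 gene are neighbours and not independent.

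The balance differed from gene to gene. *Evx1*, *Isl1*, *Lhx5* and *Evx2* had more ΔSRR2–18-only than parent-only intervals, which was the case for 45.1% of the 17643 genes with an interval. *Lhx4*, *Lhx3*, *Lbx1* and *Lhx1* had more parent-only intervals, which was the case for 27.3% of those genes, and *Mnx1* had 3 of each. The plot of interval counts by gene shows the extremes, *Lhx4* with 5 parent-only and 0 ΔSRR2–18-only intervals, *Evx1* with 1 and 4, and *Isl1* with 0 and 3. An interval covered a TSS of 7 of the 9 genes in each list, where it did so for 58.5% of 21924 protein-coding genes in the parent list and 61.4% in the ΔSRR2–18 list. Those 21924 include genes without an interval. Of the 17643 genes with one, a TSS was covered at 12404 in the parent list and at 13042 in the ΔSRR2–18 list. *Lbx1* was covered in the parent list alone, *Lhx5* in the ΔSRR2–18 list alone and *Evx2* in neither.

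**Figure D1:**
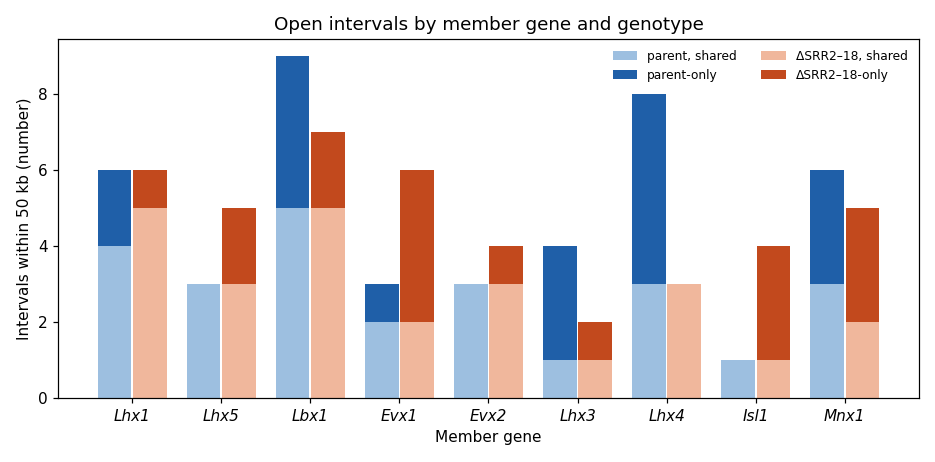
Number of open intervals within 50 kb (vertical axis) for each member gene (horizontal axis), parent in blue and ΔSRR2–18 in orange, with shared intervals pale and intervals of 1 genotype dark. The dark blue bars are tallest at *Lhx4* (5) and *Lbx1* (4), and the dark orange bars at *Evx1* (4), *Isl1* (3) and *Mnx1* (3).

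Another 32 transcription factor genes of spinal neurons, among them *Isl2*, *Lmx1b*, *Pax2* and *Gata3*, were counted the same way for context. They had 122 parent and 195 ΔSRR2–18 intervals, of which 41 (33.6%) were parent-only and 113 (57.95%) were ΔSRR2–18-only. Over all protein-coding genes these shares were 45.05% in the parent list and 53.04% in the ΔSRR2–18 list. More ΔSRR2–18-only than parent-only intervals were found at 21 of the 32 genes, the reverse at 4, and equal numbers at 7. A TSS was covered at 19 of them in the parent list and at 20 in the ΔSRR2–18 list. Of all 17643 genes with an interval, a TSS was covered at 12404 and 13042. The 4 of 9 homeodomain genes with more ΔSRR2–18-only intervals were near the 45.1% of all genes, and their difference from these 32 genes was not tested.

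**Figure D2:**
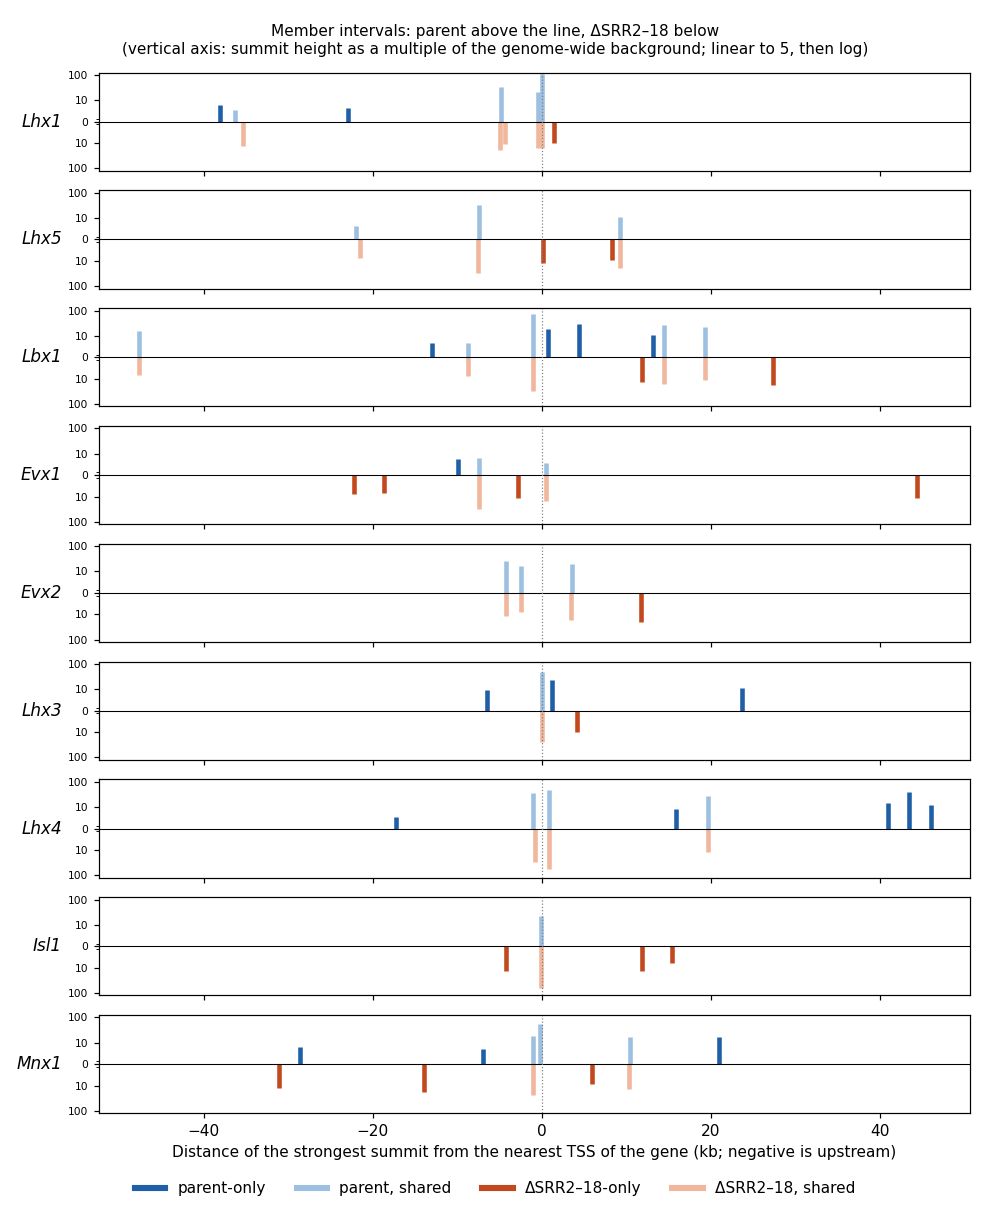
Each vertical line is 1 open interval, placed by the distance of its strongest summit from the nearest TSS of the gene (horizontal axis, kb, negative upstream), and its length is the summit height as a multiple of the genome-wide background (linear to 5, then logarithmic). Parent intervals point up in blue and ΔSRR2–18 intervals down in orange, pale where shared, and the *Lhx1* TSS line reaches 107 upward and 14.9 downward.

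*Lhx1* (chr11:84518284-84525535, minus strand) encodes a LIM-homeodomain factor of inhibitory dorsal interneurons and had 6 intervals in each list. At its TSS the parent summit, at -17 bp, had a pileup of 4149 and a height of 107, the highest of all member intervals and in the top 6.96% of the parent list. The ΔSRR2–18 interval there, with its summit at 47 bp, had a pileup of 293 and a height of 14.9, in the top 58.1% of its list. The height was 7.17-fold lower in ΔSRR2–18 (log2 -2.84), and 1.43% of all shared regions had a log2 ratio as low or lower. The local background differed with it, at 8.41 and 3.11 times the genome-wide level. The rank was lower in ΔSRR2–18 by fold enrichment and by −log10 p as well.

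In the parent list the other *Lhx1* intervals were lower than the one at the TSS, whereas in the ΔSRR2–18 list some were higher. At an internal TSS, in an intron, the height was 20.7 in the parent list and 15.5 in the ΔSRR2–18 list, where its pileup of 304 was the highest within 1 kb of a TSS of the gene. Upstream, in the antisense gene *Lhx1os*, the height was 32.6 in the parent list and 19.5 in the ΔSRR2–18 list, which split the region in 2 intervals. By fold enrichment these 2 regions ranked higher in ΔSRR2–18. A far upstream region ranked higher in ΔSRR2–18 by each measure and had the largest gain in rank by fold enrichment of the 24 shared regions. Its height was 4.35 at -36278 bp in the parent list and 13.0 at -35368 bp in the ΔSRR2–18 list. The 2 intervals overlapped only in part, and each strongest summit lay outside the interval of the other list, so different sites were compared. The strongest parent-only interval by fold enrichment, at -38031 bp, had a fold enrichment of 6.45. The single ΔSRR2–18-only interval, in coding sequence at 1422 bp, had a fold enrichment of 3.64.

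*Lhx5* (chr5:120431699-120441223, plus strand), the close relative of *Lhx1* in the same interneurons, had 3 parent and 5 ΔSRR2–18 intervals, and 0 were parent-only. Its TSS was open in the ΔSRR2–18 list alone, with a summit at 168 bp, a fold enrichment of 6.03 and a height of 11.9. The parent optimal list, the authors' less strict list, had no interval there either. A second ΔSRR2–18-only interval lay in coding sequence at 8357 bp, with a fold enrichment of 3.61, the lowest of the ΔSRR2–18 member intervals.

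The upstream *Lhx5* site printed above was the strongest of the set by fold enrichment and was much alike in both lists. Its fold enrichment was 29.3 in the parent list, in the top 0.245%, and 28.2 in the ΔSRR2–18 list, in the top 0.799%. Its heights were 31.8 and 29.6, and it lay in an intron of the gene model *Gm27199*. At the 3′ end of *Lhx5*, near 9227 bp, the height was 10.9 in the parent list and 18.3 in the ΔSRR2–18 list, the largest rank change of the gene by pileup (top 66.9% and top 49.3%). By fold enrichment that region ranked lower in ΔSRR2–18 (top 52.4% and top 67.9%).

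*Lbx1* (chr19:45232684-45235812, minus strand), a determinant of dorsal association interneurons, had 9 parent and 7 ΔSRR2–18 intervals, of which 4 and 2 were of 1 genotype. The parent interval over its TSS peaked at -1024 bp with a pileup of 2865 and a height of 73.8, in the top 13.8%. The overlapping ΔSRR2–18 interval peaked at -1036 bp with a pileup of 593 and a height of 30.2, in the top 30.4%, and ended short of the TSS. The height was 2.45-fold lower. Of the 5 shared regions, 4 were lower in ΔSRR2–18 and the 1 at -8694 bp was higher, at 5.23 against 7.94. The largest rank difference was at -47699 bp, with a height of 15.6 (top 54.0%) in the parent list and 6.92 (top 91.2%) in the ΔSRR2–18 list.

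Intervals of 1 genotype lay on both sides of the *Lbx1* gene. Among parent-only intervals the highest fold enrichment was 6.34, at 4467 bp, where the height was 29.8 and the ΔSRR2–18 optimal list did have an interval. A parent-only interval in coding sequence at 717 bp had a height of 18.6 but a fold enrichment of 2.50, over a local background of 7.44 times the genome-wide level. Among ΔSRR2–18-only intervals the highest fold enrichment was 15.8, at 27393 bp, with a height of 18.2.

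*Evx1* (chr6:52313498-52318378, plus strand), which sets the identity of ventral commissural interneurons, had 3 parent and 6 ΔSRR2–18 intervals. At the TSS the parent summit, at 475 bp in coding sequence, had a pileup of 174 and a height of 4.48, in the top 97.1%, so that it was among the weakest of its list. The ΔSRR2–18 summit, at 473 bp, had a pileup of 292 and a height of 14.9, in the top 58.3%. The height was 3.32-fold higher, and 91.4% of all shared regions had a log2 ratio no larger. The local background was at the genome-wide level in the parent list and 1.99 times that level in the ΔSRR2–18 list.

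The upstream *Evx1* site had the highest ratio of all shared regions of the set. Its height was 6.56 in the parent list (pileup 255, top 86.0%) and 30.2 in the ΔSRR2–18 list (pileup 594, top 30.4%), a 4.60-fold difference. Both *Evx1* regions ranked higher in ΔSRR2–18 by fold enrichment and by −log10 p too. Of the 4 ΔSRR2–18-only intervals, the strongest had a fold enrichment of 10.6 at 44395 bp, beside the TSS of the gene model *Gm15054*. The others were at -22245 bp, at -18695 bp and, in an exon of the antisense gene *Evx1os*, at -2794 bp, with heights from 6.87 to 11.6. The parent-only interval at -9904 bp had a fold enrichment of 5.97 and a height of 6.10.

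*Evx2* (chr2:74652991-74659557, minus strand), the *Evx1* relative beside *Hoxd*, had 3 shared regions, and in contrast to *Evx1* all 3 were lower in ΔSRR2–18. At -4197 bp the height was 25.0 in the parent list and 12.0 in the ΔSRR2–18 list. At -2421 bp it was 15.9 and 8.19, the largest rank difference of the gene (top 53.3% and top 84.9%). At 3550 bp, in coding sequence, it was 20.3 and 16.1. These 3 regions were also ranked lower by fold enrichment and by −log10 p. No conservative interval covered a TSS in either list, whereas the ΔSRR2–18 optimal list had an interval at 641 bp with a height of 8.24. The 1 ΔSRR2–18-only interval, at 11766 bp, had the highest fold enrichment of its class, at 18.8, with a height of 19.7.

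*Lhx3* (chr2:26200212-26208289, minus strand), a motor neuron and ventral interneuron determinant, had 4 parent and 2 ΔSRR2–18 intervals. At its TSS the parent pileup was 1928 with a height of 49.6, and the ΔSRR2–18 pileup was 499 with a height of 25.4. The height was 1.96-fold lower, while the fold enrichment was 19.7 and 20.9, in the top 10.6% and the top 10.0%, so the direction differed between the measures. The 3 parent-only intervals had fold enrichments of 10.5 at 23705 bp, 8.83 at 1266 bp and 8.81 at -6450 bp, the last in an intron of *Qsox2*. The ΔSRR2–18-only interval, in coding sequence at 4153 bp, had a fold enrichment of 7.54. The distances of 23705, 1266 and 4153 bp are from a second TSS of *Lhx3*, inside the gene.

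*Lhx4* (chr1:155698031-155751684, minus strand), which acts with *Lhx3* in motor neurons, had 8 parent and 3 ΔSRR2–18 intervals and was the 1 gene with 0 ΔSRR2–18-only intervals. Distances are from the 1 TSS of the annotation used, which lies inside the gene coordinates given above. The promoter at this TSS was open in both lists, with its summits in an *Lhx4* intron. Just downstream of the TSS the height was 45.3 in the parent list (pileup 1761, top 23.8%) and 56.2 in the ΔSRR2–18 list (pileup 1104, top 13.2%), and at the upstream side of the TSS it was 35.1 and 29.9. An intronic region at 19656 bp had a height of 26.4 (top 37.3%) in the parent list and 11.8 (top 68.7%) in the ΔSRR2–18 list. The 5 parent-only intervals were led by 1 at 43467 bp, in the untranslated region of the last exon, with a fold enrichment of 13.1 and a height of 39.8, the highest of all parent-only member intervals. It was flanked by parent-only intervals at 40983 bp and 46027 bp, with heights of 14.2 and 11.5. The other parent-only intervals were at 15873 bp and -17240 bp, with heights of 8.29 and 4.25.

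*Isl1* (chr13:116298281-116309689, minus strand), a LIM-homeodomain factor of motor and sensory neurons, had 1 parent interval and 4 ΔSRR2–18 intervals. The TSS was open in both lists. The parent pileup was 893 with a height of 23.0, in the top 41.4%, and the ΔSRR2–18 pileup was 1246 with a height of 63.4, in the top 10.6%, the highest of the ΔSRR2–18 member intervals. The height was 2.76-fold higher in ΔSRR2–18. The local background was higher as well, at 3.59 against 1.24 times the genome-wide level, and the fold enrichment was 18.3 and 17.4, so the rank by fold enrichment was slightly lower. The 3 ΔSRR2–18-only intervals had fold enrichments of 12.4 at 11880 bp, 6.10 at 15401 bp and 4.18 at -4176 bp.

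*Mnx1* (chr5:29473034-29478470, minus strand), a motor neuron determinant, had 6 parent and 5 ΔSRR2–18 intervals, with 3 of each found in 1 genotype. Over its TSS the parent list had an interval with a summit at -184 bp, a pileup of 2165 and a height of 55.7, and a weaker interval just upstream with a height of 18.5. The ΔSRR2–18 list had 1 interval over the same stretch with its strongest summit at -1002 bp, a pileup of 480 and a height of 24.4. Between the highest summits of the 2 lists, which lay at different places in the region, the height was 2.28-fold lower. At the upstream end the direction was the reverse, with a parent height of 18.5 at -988 bp and a ΔSRR2–18 height of 24.4 at -1002 bp. The strongest parent-only interval, at 20968 bp in an untranslated region of the neighbouring gene *Nom1*, had a fold enrichment of 12.7, and the ΔSRR2–18 optimal list did have an interval there. The ΔSRR2–18-only intervals had fold enrichments of 17.7 at -13920 bp, 11.4 at -31136 bp and 4.91 at 5993 bp.

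Across the 24 regions of the 9 genes open in both lists, height ratios had quartiles further apart than over the genome. The lower and upper quartiles of the log2 ratio were -1.03 and 0.61, where those of all 39072 shared regions were -0.72 and 0.47, and the medians were -0.41 and -0.24. A height at least 2-fold lower in ΔSRR2–18 was found at 7 of 24 regions (29.2%), where 16.0% of all shared regions had one. The 24 regions are few and those of 1 gene are neighbours, and the difference from all shared regions was not tested. These 7 were 3 regions of *Lbx1* and 1 each of *Lhx1*, *Mnx1*, *Lhx4* and *Evx2*. A height at least 2-fold higher was found at 4 of 24 (16.7%), where 15.8% of all shared regions had one. These 4 were both *Evx1* regions, the *Isl1* TSS and the far upstream *Lhx1* region. At the *Mnx1* region and the far upstream *Lhx1* region the ratio set summits at different places against each other.

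**Figure D3:**
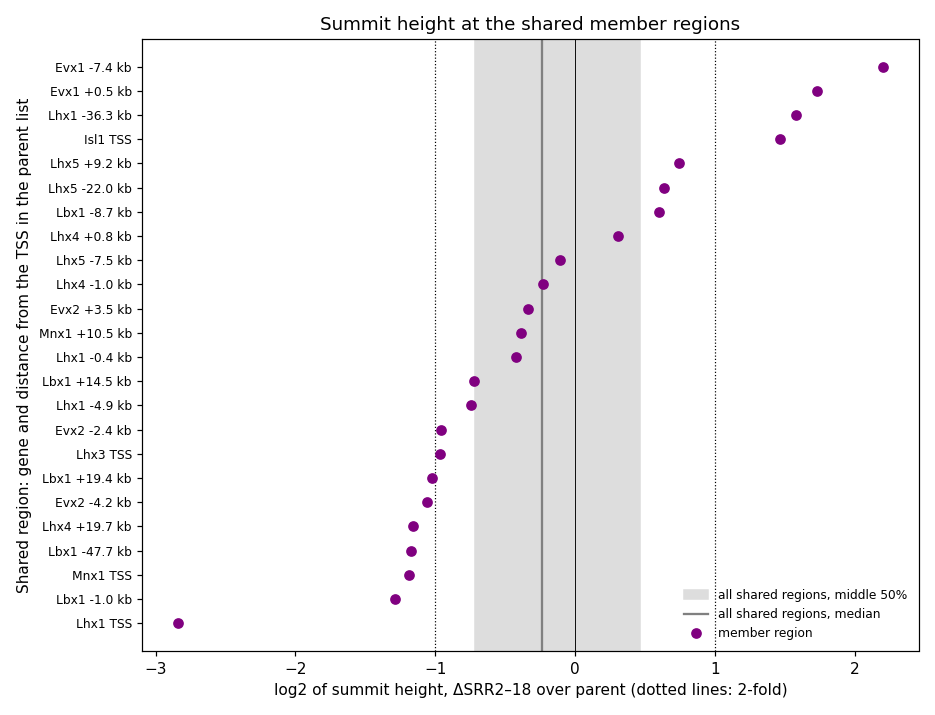
The log2 ratio of summit heights, ΔSRR2–18 over parent (horizontal axis), for each of the 24 shared member regions (vertical axis, gene and distance from its TSS), with the median (-0.24) and the middle 50% of all shared regions shown in grey. The *Lhx1* TSS stands alone at -2.84, and the *Evx1* regions lie at the other end at 2.20 and 1.73.

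The median difference in within-list rank by pileup, negative where ΔSRR2–18 ranked lower, was -12.39 percentage points at the 24 member regions and -0.49 over all shared regions. By all 3 measures, pileup, fold enrichment and −log10 p, 12 of the 24 regions ranked lower in ΔSRR2–18 and 6 ranked higher, and the measures differed in direction at the remaining 6. Over all shared regions 42.2% ranked lower and 32.2% higher by all 3 measures, so that lower ranks were more frequent than higher ones there too. Among shared regions at promoters as a whole the median log2 ratio was -0.45, with quartiles of -0.76 and -0.15. The *Isl1* TSS (1.46), the *Evx1* TSS and the *Lhx4* region just downstream of its TSS (0.31) lay above the upper of these. The *Lhx1* TSS, the *Mnx1* TSS region (-1.19, between summits at different places) and the *Lhx3* TSS (-0.97) lay below the lower. The local background exceeded the genome-wide level in at least 1 list at 20 of the 24 regions, and its ratio had the sign of the height ratio at 16 of the 20, where it did so at 84.9% of all such shared regions. Part of this agreement is built in, because the window of the local background holds the interval itself.

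By the position of the strongest summit, the largest class of member intervals lay between genes. That class included the *Lbx1* parent interval (-1024 bp) and the *Mnx1* ΔSRR2–18 interval (-1002 bp). Both cover a TSS, but their summits lay just beyond 1 kb. Of the 43 parent intervals 10 were within 1 kb of a TSS of any gene, 11 in gene bodies and 22 (51.2%, 36.8 to 65.4%) between genes, where 31.2% of all parent intervals lay between genes. Of the 42 ΔSRR2–18 intervals these were 9, 10 and 23 (54.8%, 40.0 to 68.8%), where 36.2% of all ΔSRR2–18 intervals lay between genes. Among intervals within 50 kb of any protein-coding TSS the shares between genes were 24.8% and 26.7%. Fold enrichment was modest, with a median of 6.59 in the parent list and 7.60 in the ΔSRR2–18 list against 9.81 and 10.45 over all intervals. By pileup, 20 of the parent member intervals and 13 of the ΔSRR2–18 member intervals were in the top 50% of their lists.

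The ΔSRR2–18-only intervals of these genes differed from their list in base composition. Within 100 bp of the strongest summit the median GC content of the 17 ΔSRR2–18-only member intervals was 58.7%, against 45.8% over all 67794 ΔSRR2–18-only intervals. Their median ratio of observed to expected CpG was 0.616 against 0.179. Over the 34301 ΔSRR2–18-only intervals within 50 kb of any protein-coding TSS the medians were 47.3% and 0.199. Leaving out promoters, the medians of the 15 left were 59.2% and 0.616, against 45.3% and 0.175. The 18 parent-only member intervals had a median GC content of 54.2% and a CpG ratio of 0.172, close to the 50.25% and 0.194 of all parent-only intervals. Shared member intervals had CpG ratios of 0.655 in the parent list and 0.644 in the ΔSRR2–18 list, against 0.342 and 0.344 over all shared intervals. Over shared intervals within 50 kb of any protein-coding TSS the ratios were 0.435 and 0.436.

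Short consensus sequences were searched on both strands within 100 bp of each strongest summit, AP-1 (TGANTCA), SOX (ACAATG), homeodomain (TAATTA), HOX-PBX (TGATTNAT), CDX (TTTATNG) and ZIC (CAGCAGG). The AP-1 consensus, bound by FOS and JUN proteins, was found in 2 of 17 ΔSRR2–18-only member intervals (11.8%, 3.29 to 34.3%), whereas 50.7% of all ΔSRR2–18-only intervals held it. It is an AT-rich word, and among intervals with a GC content of at least 55% it was found in 1 of 13 member intervals (7.69%, 1.37 to 33.3%) and in 36.4% of all ΔSRR2–18-only intervals. Within 50 kb of any protein-coding TSS these shares were 50.8% of ΔSRR2–18-only intervals and 35.3% of those with a GC content of at least 55%. In the parent-only class it was found in 1 of 18 member intervals and in 4.59% of all. The upper bounds of 34.3% and 33.3% lay below the shares over ΔSRR2–18-only intervals, near genes or in all. The margin was small in the class of high GC content, which was added after values were seen and was not matched for CpG. These bounds cover counting error only and treat intervals as independent, whereas those of 1 gene are neighbours. The difference in AP-1 share was not tested.

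**Figure D4:**
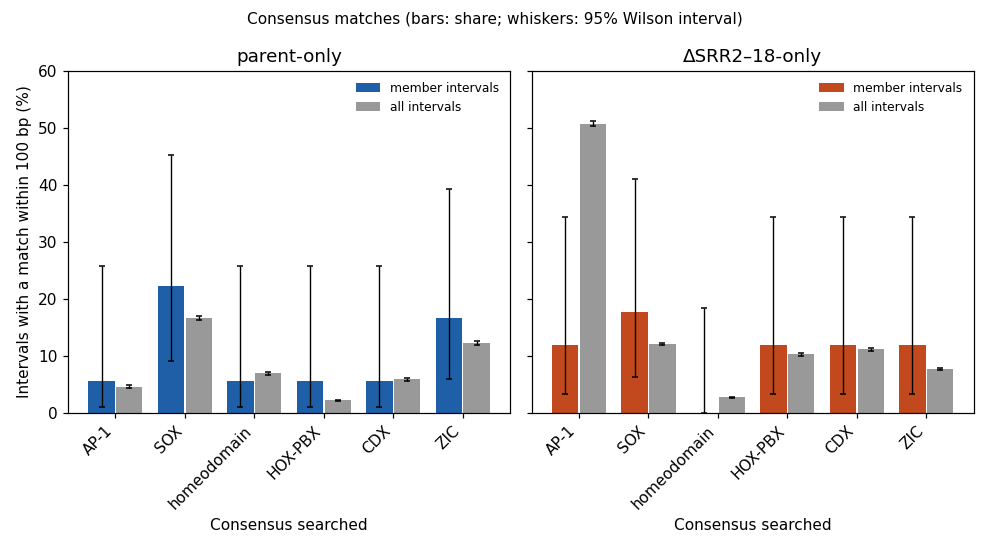
Share of intervals of 1 genotype with each consensus within 100 bp of the strongest summit (vertical axis, percent), for member intervals in colour and all intervals in grey, with 95% Wilson intervals as whiskers. In the ΔSRR2–18-only panel the AP-1 bar of the member intervals (11.8%) lies far below that of all intervals (50.7%), and the whiskers of every other pair overlap.

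The other consensus sequences showed no such gap. SOX was found in 3 of 17 ΔSRR2–18-only member intervals (17.6%, 6.19 to 41.0%) against 12.0% of all, and in 4 of 18 parent-only member intervals (22.2%, 9.0 to 45.2%) against 16.7%. HOX-PBX, CDX and ZIC were each found in 2 of 17 ΔSRR2–18-only member intervals, against 10.3%, 11.2% and 7.65% of all. The homeodomain consensus was found in 0 of 17, against 2.69% of all, and a count of 0 in 17 allows a share of up to 18.4% (Wilson). HOX-PBX was found in 1 of 18 parent-only member intervals and in 2.16% of all parent-only intervals. None of the 6 sequences occurred in the *Lhx1* stretch printed above or in the *Evx1*, *Evx2*, *Lhx5* and *Mnx1* stretches.

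The ΔSRR2–18-only intervals that did hold AP-1 or HOX-PBX were those of *Evx1* at -18695 bp, *Lbx1* at 11918 bp and *Mnx1* at -31136 bp, shown with the match in capitals on the plus strand of mm10. In the *Evx1* interval the AP-1 and HOX-PBX matches overlapped at the summit, at chr6:52294787-52294824, and a second AP-1 match lay at chr6:52294866-52294902. The *Lbx1* match was at chr19:45223875-45223911 and the *Mnx1* match at chr5:29509550-29509587.
Evx1 HOX-PBX over AP-1: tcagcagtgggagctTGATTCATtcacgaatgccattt
Evx1 second AP-1: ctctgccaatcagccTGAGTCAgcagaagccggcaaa
Lbx1 AP-1: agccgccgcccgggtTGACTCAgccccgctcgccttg
Mnx1 HOX-PBX: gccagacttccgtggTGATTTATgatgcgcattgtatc
A match is a description of these letters and not evidence of binding.

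Beyond the limit of 50 kb *Evx1* was the nearest gene of 4 parent and 9 ΔSRR2–18 intervals, *Lhx1* of 4 and 1, and *Lhx5* of 2 in each list. *Lbx1* had 1 in the parent list, *Lhx4* had 1 in the ΔSRR2–18 list, and *Lhx3*, *Mnx1* and *Evx2* had 0. The farthest member interval inside the limit was the *Lbx1* region at -47699 bp in the parent list (fold enrichment 15.2), and the nearest outside was 1 of *Evx1* at 53175 bp in the parent list (fold enrichment 6.63). Farther out *Isl1* was the nearest gene of 0 parent and 23 ΔSRR2–18 intervals. They lay from 91.2 to 599.5 kb away, 6 of them upstream, with heights from 4.93 to 48.1 and a median of 22.6, and none overlapped a parent interval. The AP-1 consensus was found in 14 of the 23, and their median GC content was 41.3%. Of the 5717 genes with an interval beyond the limit, 18, *Isl1* included, had at least 23 ΔSRR2–18 intervals and no parent interval there.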

How the data were processed

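Parent and ΔSRR2–18 NSPCs were assayed by ATAC-seq. Per the paper's methods, the authors ran the ENCODE ATAC-seq pipeline, in which MACS2 called the peaks and IDR filtered them for reproducibility over the 3 cultures of a genotype. The 4 deposited lists, a conservative and an optimal list per genotype, are in mm10, and for each summit the authors deposited an IDR score, a summit offset, a −log10 p and the fold enrichment, which is a ratio to the local background; the −log10 q was not used. The submitters' processing notes also name deepTools. One allele is Cast, so reads that differ from mm10 may map less often, and the alleles were not separated.

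Distinct intervals of the conservative lists took their place from the summit of highest fold enrichment and their pileup from the highest summit. Pileup and local background were solved from fold enrichment and −log10 p under the Poisson model of MACS2. All pileups but 1 were whole within 0.05. Nearest genes and features came from GENCODE M21 (basic). Intervals overlapping by at least 1 bp were shared. A range given after a share is its 95% Wilson interval. Python 3.11.15, numpy 2.4.6, pandas 2.3.3 and scipy 1.17.1 were used. Sequences were read from GRCm38.p6, the mm10 assembly. The cut sites of SRR2–18 were placed by an exact match of the guides in the paper's supplement. Overlaps, pileup recovery and the motif scan were tested on simulated data.

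The genes, lists and motifs were chosen with earlier results of these data known. All 9 genes were named, each with its counts, its TSS interval, its strongest interval of 1 genotype by fold enrichment and its shared region of largest rank change by pileup. The alternatives were the optimal lists, an IDR score of at least 830, 50% reciprocal overlap, absence from both lists of the other genotype, lists of equal length, merged intervals, gene distances of 10 and 100 kb, TSSs of any gene type, the summit of highest −log10 p, other ranks, a 50 bp motif window and intervals outside promoters. Others, added once values had been seen, brought parent pileups to ΔSRR2–18 depth and held both lists to a scaled −log10 p minimum of 20 or of 50, and took intervals with a GC content of at least 55% alone.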

Additional observations from a re-analysis of the deposited data

Results flagged for a closer look

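The optimal lists, which entered no count above, held further intervals of the 9 genes that overlap no conservative interval of their own genotype. There were 6 such intervals in the ΔSRR2–18 list and 4 in the parent list, and a level above the parent's is what put them here. The 6 belonged to *Lbx1* (at 6088 and 4257 bp), *Lhx1* (414 bp), *Lhx3* (7931 bp), *Evx2* (641 bp) and *Mnx1* (21068 bp), with fold enrichments from 2.94 to 6.10, and 3 of them overlapped a conservative parent interval. The 4 in the parent list belonged to *Lhx4*, *Lhx1*, *Mnx1* and *Lhx5*, with fold enrichments from 3.51 to 5.80. The difference was not tested.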

How the results depend on the processing

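No paired analysis was possible because the lists pool the cultures, and for the same reason no culture could be left out. The 6 counts of member intervals (in each list, parent-only, ΔSRR2–18-only and shared) stayed within 1.5 times their values in 65 of 72 cases. Merged intervals, the summit of highest −log10 p and the −log10 p minimum of 20 changed none of these counts, so their cases say little. With 50% reciprocal overlap 25 of the 43 parent intervals were parent-only and 24 of the 42 ΔSRR2–18 intervals were ΔSRR2–18-only. The shares over all intervals were not taken at that overlap. With a gene distance of 10 kb the parent list had 24 member intervals, of which 6 were parent-only, and the ΔSRR2–18 list had 25, of which 7 were ΔSRR2–18-only. With TSSs of any gene type 11 parent-only and 10 ΔSRR2–18-only intervals were left, and with lists of equal length 22 parent-only and 9 ΔSRR2–18-only, of 43 and 29 member intervals. The median rank difference of the shared regions was -6.87 points by fold enrichment and -7.44 by −log10 p. With parent values scaled to the ΔSRR2–18 depth, a −log10 p of at least 20 removed no member interval and so says nothing of depth, and one of at least 50, added after the values were seen, left 14 parent-only of 35 and 20 ΔSRR2–18-only of 41. Per gene, the excess of ΔSRR2–18-only over parent-only intervals changed sign in 6 cases. It became 1 for *Lbx1* with the optimal lists, 1 for *Lhx1* with an IDR score of at least 830, with a distance of 10 kb, with TSSs of any type and with the −log10 p of at least 50, and -1 for *Evx2* with lists of equal length. The cause was not tested. *Lhx4*, *Lhx3*, *Isl1*, *Evx1* and *Lhx5* changed sign under no alternative, although the excess was 0 for *Lhx4* and *Evx1* with a distance of 10 kb and for *Lhx5* with lists of equal length and with TSSs of any type. *Mnx1* had an excess of 0, so no change of sign could be counted for it. Its excess was -1 with the optimal lists, 50% reciprocal overlap and lists of equal length. It was 1 with absence from both lists of the other genotype and with the −log10 p of at least 50. Depth limits the weakest intervals, since an interval missing from a list may lie below its threshold.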
